A study of Salmo salar with 31 samples.

Results

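The 200 microarray features whose signal differed most between individual fish of the same group were examined in Atlantic salmon skin. They were taken from 8379 features that were bright enough to be ranked, out of 14841 non-control features on the array. For each feature the deposited value, a spot intensity in arbitrary units after background subtraction, was raised to at least 16, with blanks set to 16, and put on the log2 scale. The SD between fish was then calculated in each of the 5 groups, and the 200 features with the highest median of the 5 SDs were kept among those with a median of at least 6 on the log2 scale over all 31 arrays. The features were thus chosen by these SDs, which are given here only as a description.

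Skin came from fish of one smolt batch that were kept on commercial feed, and each of the 31 arrays held RNA of 1 fish. The groups were 7 smolts in freshwater, sampled before transfer, and 6 post-smolts each from an open sea cage after 1 month in seawater (net-pen 1M), the cage after 4 months (net-pen 4M), a semi-closed containment system after 1 month (S-CCS 1M) and the same system after 4 months (S-CCS 4M). Each system was a single enclosure at its own site, so a difference between systems cannot be told apart from a difference between enclosures or sites. The fish of a group were hybridized mostly as pairs on a shared slide, and net-pen 1M occupied 3 slides of its own. The share of features well above background ran from 84.3% to 97.1% by array, and no spot was saturated.

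Fish skin meets the water with living cells and a coat of mucus, and its scales grow in a deeper, collagen-rich layer that also carries pigment cells and nerves. Fat and muscle lie below. A skin sample therefore contains RNA from many cell types, and in such a bulk sample fewer cells of a type and less RNA per cell cannot be told apart. The probe IDs of the array matched none of the 65341 genes in the reference table, so features are named by probe ID and no gene or cell type is given to them.

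The median of the 5 SDs ran from 1.28 to 2.91 in the 200 features, with a median of 1.67 on the log2 scale, against 0.26 over all eligible features. At the lower edge, Ssa#S30345407, Ssa#KSS322 and Ssa#CK991073 were the last to enter with 1.290, 1.285 and 1.283, and Ssa#S35526053, Ssa#TC85658 and Ssa#TC72091 were the first left out with 1.282, 1.281 and 1.280. The edge is therefore a cut through a continuum. Of the 200 features 178 were well above background on every array, a lower share than among all eligible features, of which 99.6% were. Their median level was 8.88 on the log2 scale against 8.15 for the eligible features. Of their 6200 values, 15 were blank and stood at 16, in 11 features, and 1 of these (Ssa#DT317734, S-CCS 1M fish 11) was a spot that the scanner software marked as well above background but as non-uniform.

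Spread was unequal between the groups. The median SD of the 200 features was 1.88 in smolts on the log2 scale. It was 0.96 at 1M and 1.45 at 4M for net-pen fish, and 2.06 at 1M and 1.64 at 4M for S-CCS fish. The highest of the 5 SDs fell in S-CCS 1M for 105 features and the lowest in net-pen 1M for 111. Among the other eligible features the highest SD also fell most often in S-CCS 1M (26.5%), but the lowest fell most often in S-CCS 4M (39.4%). Their median SD was 0.272 in smolts, 0.274 at 1M and 0.264 at 4M for net-pen fish, and 0.274 and 0.202 for S-CCS fish. Because the SDs entered the choice of the features, these values are a description.

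**Figure D1:**
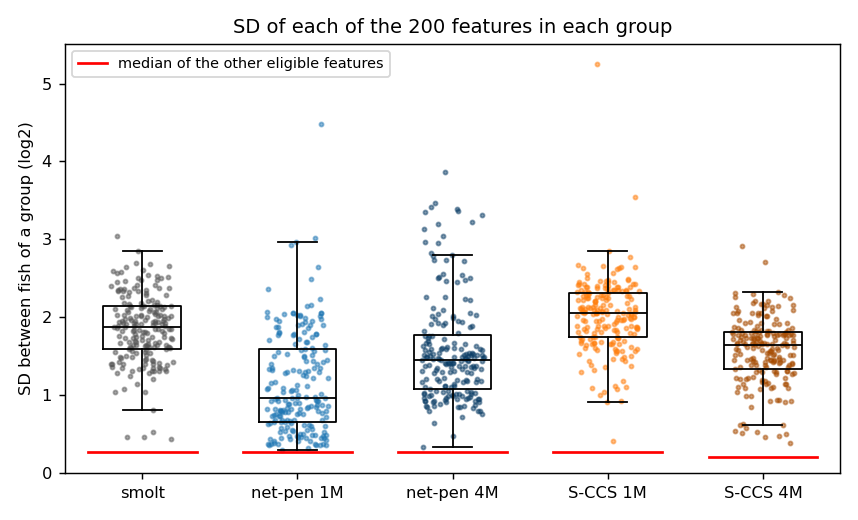
SD between the fish of a group (log2, y axis) for each of the 200 features in each of the 5 groups (x axis); points are features, boxes show the median and quartiles, whiskers reach the farthest point within 1.5 times the interquartile range, and red lines mark the median of the 8179 other eligible features. Points of S-CCS 1M lie highest, with a median of 2.06, and those of net-pen 1M lowest, with 0.96, while the red lines stay between 0.202 and 0.274.

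Most of this variation was shared. After the mean of each group was subtracted, features were joined by average linkage on the Pearson correlation of their 31 values, and the tree was cut at a mean r of 0.6. One large set held 165 features (82.5%) and one small set 10 (5%). The other 25 fell into 4 clusters of 2 to 4 features and 16 single features. Within the large set the median r between pairs was 0.81 and the lowest was 0.10. The first principal component of the group-centred values carried 61.6% of their variance and the second 16%. These correlations are over 31 fish, whose features share an array each, and the sets are described by the values that formed them.

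At a cut of 0.7 the large set came apart into a first subset of 103 features and a second subset of 61, with 1 feature (Ssa#GRASP221221135) in neither. The levels of both subsets, each taken as the median of its features, correlated with an r of 0.67 over 31 fish. The large and the small set had an r of 0.03. The features nearest to the centre of the large set were Ssa#S35493339, Ssa#S48375686 and Ssa#GRASP209730785, with a mean r to the rest of 0.855, 0.844 and 0.843. In the first subset they were Ssa#GRASP209730363, Ssa#S35523051 and Omy#S34423858 (0.922, 0.921 and 0.921), in the second subset Ssa#TC97851, Ssa#S35604361 and Ssa#S18892470 (0.947, 0.946 and 0.944), and in the small set Omy#CX153651, Ssa#CA061607 and Ssa#CK991045 (0.947, 0.945 and 0.943).

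**Figure D2:**
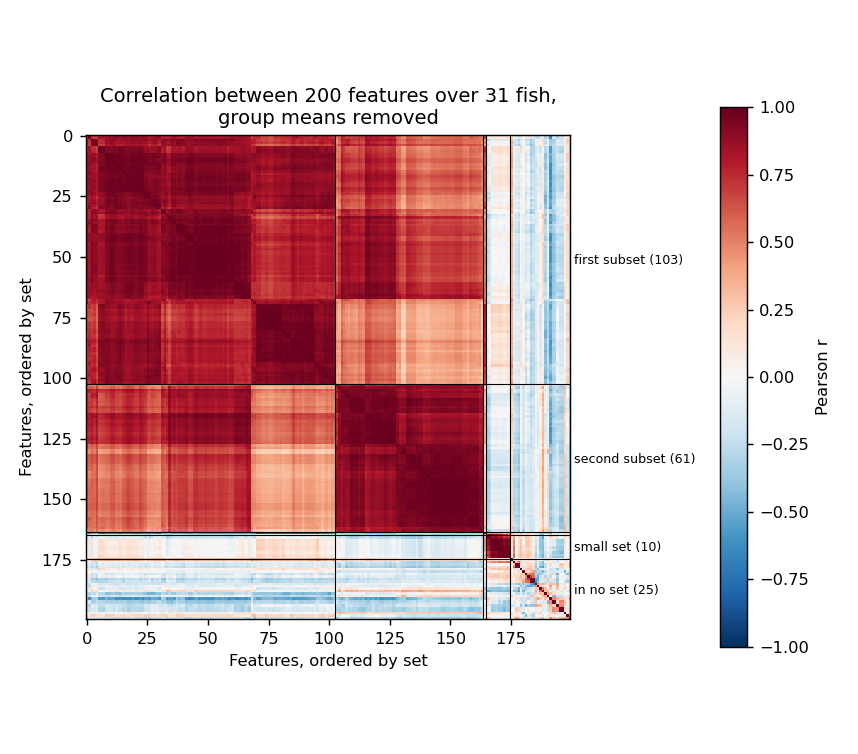
Pearson r (colour) between each pair of the 200 features over 31 fish after group means were removed, with both axes ordered by set. The first subset (103 features), the second subset (61) and the small set (10) form blocks of high r, the first 2 blocks also share a positive r, and the 25 features in no set show mostly weak r with the blocks.

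The level of the large set spanned a wide range among fish of one group. In smolts the lowest, the median and the highest fish stood at 6.00, 9.73 and 11.12 on the log2 scale of the deposited values. The corresponding levels of net-pen fish were 8.90, 9.71 and 10.83 at 1M and 6.66, 8.56 and 10.68 at 4M. Those of S-CCS fish were 6.43, 9.19 and 11.36 at 1M and 5.55, 8.75 and 9.65 at 4M. The groups overlapped throughout, and the fish with low levels were scattered over them: smolt fish 1, net-pen 4M fish 12, S-CCS 1M fish 2 and 6 and S-CCS 4M fish 12 lay below 7 on this scale, whereas no net-pen 1M fish did. From the lowest fish (S-CCS 4M fish 12) to the highest (S-CCS 1M fish 1) the level rose 55.9-fold, and the share of the set in the summed signal of an array ran from 0.309% in smolt fish 1 to 13.3% in S-CCS 1M fish 1.

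The SD of this level was 1.81 in smolts, 0.70 at 1M and 1.42 at 4M for net-pen fish, and 1.98 at 1M and 1.47 at 4M for S-CCS fish. In S-CCS 4M it was 0.68 without fish 12, and in smolts 1.36 without fish 1. Much of the spread lay between fish on one slide. S-CCS 1M fish 1 and 2 shared a slide and differed by 4.93, and smolt fish 1 and 2 shared one and differed by 3.73. Each was the largest difference among 3 same-slide pairs of its group, and the smallest was 0.15 in S-CCS 1M and 2.61 in smolts. The SD between same-slide fish was 2.21 in smolts, 0.89 at 1M and 1.26 at 4M for net-pen fish, and 2.545 at 1M and 1.56 at 4M for S-CCS fish. The level of the large set had an r of -0.07 with the share of features well above background over 31 fish, group means removed. The constant per array that links deposited values to background-subtracted signal was 0.13 on the log2 scale in smolt fish 1. It was 0.02 in S-CCS 4M fish 12 and between -1.11 and -0.30 on every other array. Net-pen 4M fish 12 and S-CCS 1M fish 2 and 6, also below 7, were within that range. S-CCS 4M fish 12 had the most blank values (1425) of any array. Whether these array differences bear on the level was not tested.

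The 2 subsets ranked fish and groups differently. In the first subset the lowest, median and highest fish were 5.81, 9.92 and 10.85 in smolts. For net-pen they were 9.255, 9.92 and 10.62 at 1M and 5.73, 8.38 and 10.94 at 4M, and for S-CCS 6.17, 8.82 and 10.75 at 1M and 5.04, 8.015 and 9.34 at 4M. The tightest group here was net-pen 1M, where all 6 fish lay within 1.37, a 2.58-fold range.

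In the second subset the lowest, median and highest fish were 6.19, 8.59 and 11.89 in smolts. For net-pen they were 7.54, 10.14 and 11.65 at 1M and 8.32, 9.29 and 10.85 at 4M, and for S-CCS 7.13, 9.64 and 12.99 at 1M and 6.99, 10 and 12.21 at 4M. Net-pen 4M was the tightest group for this subset, with an SD of 0.955, against 1.65 in net-pen 1M. Single fish could be high in one subset and low in the other. S-CCS 4M fish 2 stood at 7.94 in the first subset and at 12.21 in the second, and smolt fish 2 at 10.85 and 8.59.

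The small set comprised Ssa#GRASP223672464, Ssa#EL697882, Ssa#S30269971, Ssa#CL4Contig1, Ssa#S50687585, Ssa#S50678800, Omy#CX153651, Ssa#CK991045, Ssa#CA061607 and Ssa#CK991073. Its lowest, median and highest fish stood at 8.60, 10.03 and 12.35 in smolts. For net-pen they stood at 10.68, 11.50 and 15.30 at 1M and 8.88, 11.05 and 12.91 at 4M, and for S-CCS at 9.82, 10.57 and 12.42 at 1M and 11.94, 12.77 and 13.38 at 4M. Net-pen 1M fish 1 was far above its group, and the SD of 1.71 in net-pen 1M became 0.63 without it. In S-CCS 4M all 6 fish were high and close together, with an SD of 0.60, while net-pen 4M fell into 3 fish between 12.03 and 12.91 and 3 fish between 8.88 and 10.08. In this one fish of net-pen 1M the set made up 3.18% of the summed signal, against 0.0378% in smolt fish 1.

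**Figure D3:**
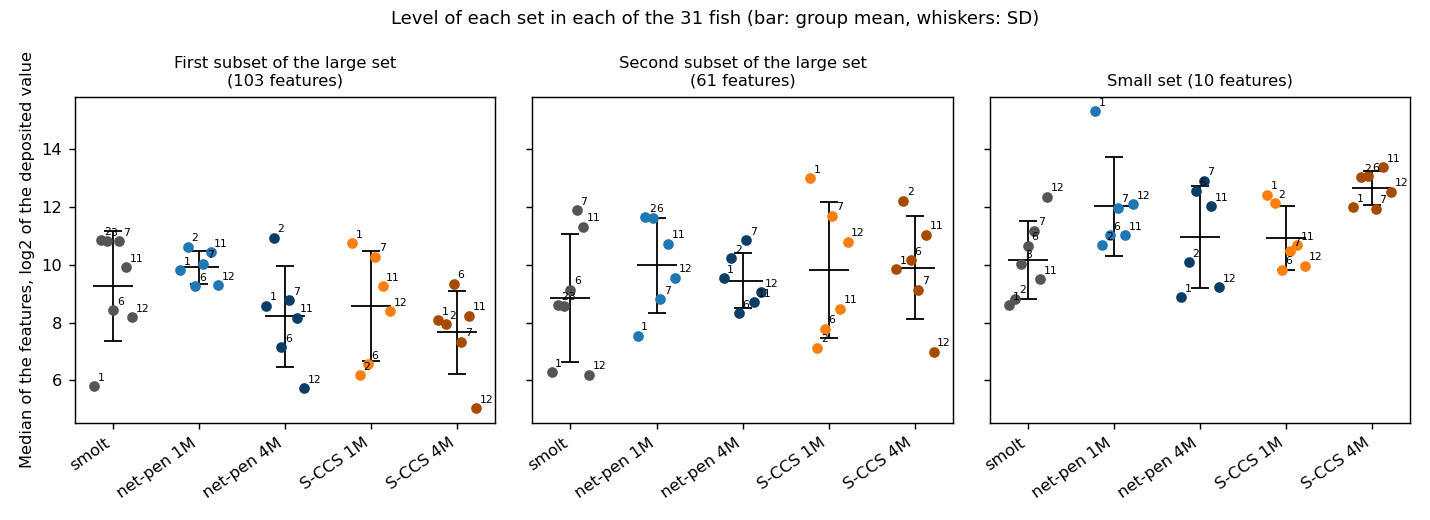
Median log2 deposited value of the first subset (left), the second subset (middle) and the small set (right) in each of the 31 fish (points, labelled with the fish number) by group; the horizontal bar is the group mean and whiskers are 1 SD. Fish of one group lie up to 5.86 apart in the second subset (S-CCS 1M), the 6 net-pen 1M fish sit within 1.37 in the first subset, and the 6 S-CCS 4M fish sit within 1.44 in the small set below net-pen 1M fish 1 at 15.30.

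Other features of the array followed the sets without varying enough to be among the 200. Of the 8179 other eligible features, 288 had an r of at least 0.6 with the large set (118 of them at least 0.8), and 504 had an r of -0.6 or lower. Over all 8179 the median was below 0, at an r of -0.24 with the large set. Ssa#S35526053, the first feature left out by the ranking, followed it with an r of 0.98, and Ssa#S32001980 ran against it with an r of -0.83. For the first subset the closest was Ssa#TC80658 (0.98) and the most opposed Ssa#GRASP209736951 (-0.90), and for the second subset Omy#S15296051 (0.96) and Ssa#KSS3060 (-0.80). For the small set 43 other features reached 0.6, of which 15 reached 0.8, led by Omy#S50901702 with 0.99. The median of the 5 SDs was 0.22 for Ssa#S32001980 and 0.96 for Ssa#GRASP209736951. These r were taken on deposited values, which carry 1 constant per array. Whether that constant bears on the negative r was not tested.

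Among the 10 features with the highest median SD, 7 belonged to the large set and 3 to no set. Ssa#GRASP209734467, a feature of the second subset, had its lowest, median and highest deposited values at 311, 2264 and 35693 in smolts and at 1274, 12572 and 49805 in S-CCS 4M. Ssa#S46932109, of the first subset, stood at 7919, 26615 and 28296 in net-pen 1M, where all fish were high, and at 32, 4790 and 17596 in net-pen 4M. The fish of these groups overlapped in both features. Ssa#S35559234 and Ssa#S35534981, also of the first subset, and Ssa#S37961119 and Ssa#S31148871, of the second, had median SDs between 2.26 and 2.28. Ssa#GRASP221221135, the large-set feature in neither subset, had lowest, median and highest values of 315, 12358 and 32738 in smolts and of 86, 739 and 2775 in S-CCS 4M.

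Some features stood at 2 separate levels with nothing in between. By a definition chosen after the values had been seen (a gap of at least 2 on the log2 scale in the ordered values of the 31 fish, with at least 3 fish on each side), 15 of the 200 features were of this kind, 14 outside the sets and 1, Omy#DV201988, in the first subset. The 5 low fish of Omy#DV201988 were the same 5 that lay below 7 in the large set. Among the 8179 other eligible features 3 (0.0367%) were. The high SD that chose the 200 favours such features, so the shares are a description.

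Ssa#GRASP223672662, the feature with the highest median SD, was the clearest. In 7 fish its deposited value lay between 11 and 19 and in the other 24 between 939 and 4402, a gap of 49.4-fold. The low fish were smolt fish 1, net-pen 1M fish 11 and 12, net-pen 4M fish 1 and 2, S-CCS 1M fish 1 and S-CCS 4M fish 1. Every group thus held both kinds of fish, and the scanner software still marked the spot as well above background in all of them. Ssa#S18885712 divided the fish nearly evenly, with 15 fish at 47 or below and 16 at 409 or above, and its low fish were 3 smolts, 3 net-pen fish at 1M and 3 at 4M, and 4 S-CCS fish at 1M and 2 at 4M. Ssa#S35528745 had 8 fish at 141 or below and 23 at 705 or above.

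Several features outside the sets came in correlated pairs, and some of these pairs divided the same fish. Ssa#TC75359 and Ssa#TC100572 had an r of 0.999 and the same 4 low fish, namely net-pen 4M fish 6, S-CCS 1M fish 1 and S-CCS 4M fish 2 and 6, at 16 or below against 117 or above in all others. Ssa#TC106938 and Ssa#S30263425 had an r of 0.983 and shared the same 10 low fish. Ssa#CK892092 and Ssa#CK888312 had an r of 0.931 and shared net-pen 4M fish 7 and S-CCS 1M fish 1 and 6 as their lowest. In Ssa#CK892092, which reached 92444 in the brightest fish, these 3 fish stood at 185 or below and the remaining 28 at 1925 or above. Ssa#S29966060 and Omy#S15341056 had an r of 0.924, and Omy#S17821074 joined them with an r of 0.712 to Ssa#S29966060. At the widest gap in their values Ssa#S29966060 had 9 low fish, Omy#S15341056 16 and Omy#S17821074 5, so these did not divide the same fish.  Whether the probes of a pair read one transcript was not tested, since no probe sequence was used here.

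Ssa#CB509156 was divided mostly by group, and only net-pen 1M held fish of both levels. Its lowest, median and highest values were 9406, 40631 and 87863 in the 7 smolts. They were 16, 75 and 73853 at 1M and 12, 23 and 291 at 4M for net-pen fish, and 12, 20 and 331 at 1M and 6, 16.5 and 80 at 4M for S-CCS fish. The 8 fish on the high level were the 7 smolts and net-pen 1M fish 1, the same fish that stood out in the small set. All-or-none features in the stricter sense, with a fish not well above background and a fish far up the scale (at 2 to the power of 10) in one group, were only 2 of the 200, Ssa#S29966060 and Ssa#CK888312, and 1 other eligible feature.

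**Figure D4:**
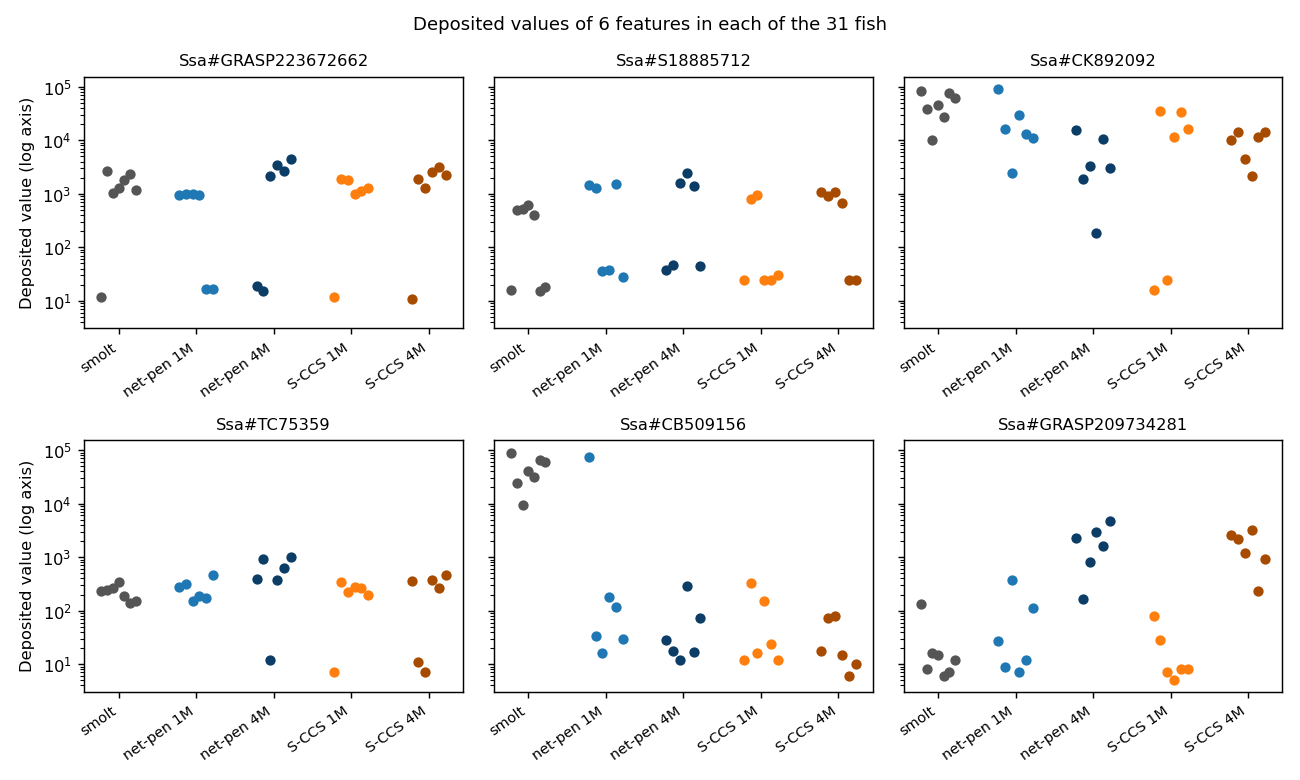
Deposited values (log axis, arbitrary units) of 6 features in each of the 31 fish by group. Ssa#GRASP223672662, Ssa#S18885712, Ssa#CK892092 and Ssa#TC75359 fall into a high and a low level within groups, Ssa#CB509156 is at 9406 or above in all smolts and in 1 net-pen 1M fish, and Ssa#GRASP209734281 is at 164 or above in every 4M fish.

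Group means entered the rule only through the limit on the median over all arrays, and they were compared by limma on the log2 expression ratio (log2-ER), the processed scanner signal scaled to equal mean intensity, divided by the mean of the feature over arrays and corrected by lowess. All 200 features passed the filter on dim spots and were among the 14172 tested, and p was adjusted by Benjamini-Hochberg over all of these. The spread that chose the 200 is also the error of these comparisons, with a median standard error of 0.98 against 0.20 for other features, so nothing is read from their share called. The 4 comparisons with smolts share the smolt fish.

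At an adjusted p under 0.05, 6 of the 200 features differed between net-pen 1M and smolts (5 higher, 1 lower; 18.7% of all features tested were called). In net-pen 4M against smolts 6 differed (3 higher, 3 lower; 19.2% of all). In S-CCS 1M against smolts 2 differed, both lower (4.47% of all), and in S-CCS 4M against smolts 19 (14 higher, 5 lower; 24.6% of all). Between the systems, 3 were higher in net-pen 1M than in S-CCS 1M (6.5% of all), and at 4 months 1 was higher and 5 lower in net-pen (7.95% of all). From 1M to 4M, 3 changed in net-pen (1 rose, 2 fell; 8.04% of all) and 6 in S-CCS (5 rose, 1 fell; 16.6% of all). In any of the 8 comparisons 20 of the 200 were called (10%), against 45.6% of all features. Counts this small depended on single fish, and the count of 19 became 47 without smolt fish 1.

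**Figure D5:**
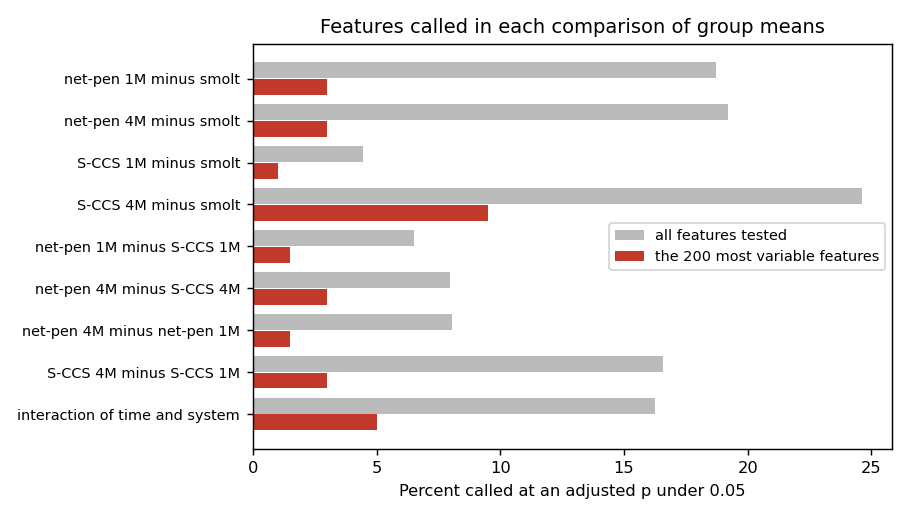
Percent of features called by limma at an adjusted p under 0.05 (x axis) in the 8 comparisons of group means and in the interaction of time and system, for all 14172 features tested (grey) and for the 200 most variable features (red). The red bar is shorter than the grey one in each comparison, with 9.5% against 24.6% in S-CCS 4M minus smolt.

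By set, the small set was called in all 10 of its features in at least 1 comparison, the large set in 6 of 165 and the features in no set in 4 of 25 (45.6% of all features tested). These counts are not set against each other. In S-CCS 4M against smolts the median standard error was 0.74 in the small set and 0.96 in the large set. The small-set features had a median r of 0.94 between pairs, and whether they read separate transcripts was not tested. All 10 small-set features were called higher in S-CCS 4M than in smolts, where 24.6% of all features tested were called. Their log2-ER differences lay between 2.07 and 6.19, with a median of 2.56 (all features tested: median 0.02). Without smolt fish 1, 7 of them were called. In net-pen 1M all 10 had a higher mean than in smolts. Of these, 5 were called (18.7% of all features tested), and 2 without net-pen 1M fish 1. Of the large set 6 features were called in S-CCS 4M against smolts, 3 of the first subset lower and 3 of the second higher, and 38 of the 165 without smolt fish 1. The median difference in this comparison was -1.40 over the first subset and 1.87 over the second, with the first lower in 100 of 103 and the second higher in 58 of 61. From net-pen 1M to net-pen 4M all 103 features of the first subset had a lower mean, with a median difference of -1.76. None of them passed the threshold, the lowest adjusted p by limma being 0.0894. The features of a set were grouped because they vary together, so such counts rest on the same few fish and are not replicates.

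Ssa#S30269971 of the small set had fish that did not overlap between groups. Its lowest, median and highest deposited values were 31, 61 and 216 in smolts. For net-pen they were 529, 1199 and 15171 at 1M and 671, 6850 and 19631 at 4M, and for S-CCS 93, 154.5 and 1321 at 1M and 2119, 3169 and 13087 at 4M. Every fish of net-pen 1M, net-pen 4M and S-CCS 4M was above every smolt, whereas S-CCS 1M overlapped the smolts. The log2-ER difference from smolts by limma was 5.16 ± 0.82 (SE) in net-pen 1M (adjusted p = 6.5e-05), 6.24 ± 0.82 in net-pen 4M (adjusted p = 3.2e-06) and 6.19 ± 0.82 in S-CCS 4M (adjusted p = 5.4e-06). From S-CCS 1M to S-CCS 4M it rose by 4.53 ± 0.85 (adjusted p = 8.0e-04). Against smolts, the fish did not overlap in 1 of the 200 features for net-pen 1M (6.32% of all features) and in 5 for net-pen 4M (6.38%). For S-CCS it was 1 at 1M (2.54%) and 5 at 4M (12.7%).

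Ssa#GRASP209734281, in no set, was low in smolts (lowest, median and highest value 6, 12 and 131), in net-pen 1M (7, 19.5 and 371) and in S-CCS 1M (5, 8 and 78). It was high in net-pen 4M (164, 1953.5 and 4743) and in S-CCS 4M (235, 1674.5 and 3261), so that 4M fish of both systems lay above every smolt. Its log2-ER was higher than in smolts by 7.21 ± 1.07 (SE) in both 4M groups, and higher by 7.53 ± 1.11 in S-CCS 4M than in S-CCS 1M. Its low values sit near the bottom of the scale, and the size of these differences moved with the processing. Among the alternative ways of processing, the smallest difference from smolts at 4M was 4.45 for net-pen fish and 3.97 for S-CCS fish. The smallest between the S-CCS times was 3.90. With a median of 6.29 over all arrays Ssa#GRASP209734281 met the rule's limit of 6 largely through the 4M fish, so these differences are a description. Some of its low spots were not well above background (1 smolt and 1 net-pen fish and 2 S-CCS fish at 1M).

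Ssa#CB509156, described above by its levels, was lower than in smolts by 10.18 ± 1.33 (SE) in net-pen 4M, and the S-CCS differences were -10.28 at 1M and -10.87 at 4M. Its median of 6.19 over all arrays was also just past the limit, with the smolts among the fish that carried it there, so these differences are a description. Ssa#CK888312 differed from smolts by -5.56 ± 1.44 for net-pen at 4M (adjusted p = 0.0061) and by -4.13 ± 1.44 for S-CCS at 4M (adjusted p = 0.034, and up to 0.0792 without smolt fish 1, 6, 11 or 12 or S-CCS 4M fish 1, 6 or 7). Its values were 1546, 11594 and 21658 in smolts, and at 4M 42, 162.5 and 1027 for net-pen and 108, 620.5 and 1085 for S-CCS, so both 4M groups lay below every smolt. The low values of Ssa#CB509156 sit near the bottom of the scale, and with normexp correction its S-CCS 4M difference was -8.03. Those of Ssa#CK888312 at 4M were higher, with medians of 162.5 for net-pen and 620.5 for S-CCS.

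Between the systems at 4 months the fish did not overlap in 3 of the 200 features (4.11% of all), and at 1 month in none (3.23% of all). From 1M to 4M it was 4 features in net-pen (3.14% of all) and 3 in S-CCS (9.93% of all). Ssa#GRASP223672464 of the small set had lowest, median and highest values of 202, 428 and 3300 in net-pen 4M and of 6096, 9432 and 14789 in S-CCS 4M, a difference of -4.24 ± 0.79 (SE; adjusted p by limma 0.0021). Ssa#CL4Contig1, of the same set, had 113, 338 and 1629 against 1415, 2993.5 and 3957, which overlap on the deposited scale but not as log2-ER, with a difference of -3.05 ± 0.81 (adjusted p = 0.022, and 0.0553 without S-CCS 4M fish 6). Ssa#S30345407, of the first subset, went the other way, with 165, 524 and 961 against 12, 57 and 92 and a difference of 3.28 ± 0.97 (adjusted p = 0.036). That call was lost with normexp correction, where the difference was 1.94 (adjusted p = 0.0995), and without net-pen 4M fish 2, 7 or 11 or S-CCS 4M fish 1, 2, 6, 7 or 12 (adjusted p up to 0.0886). From net-pen 1M, where its values were 3456, 4266.5 and 78253, Ssa#GRASP223672464 fell by 3.81 ± 0.79 to net-pen 4M (adjusted p = 0.0026).

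The time course was unequal in S-CCS and net-pen, by the interaction of time and system at an adjusted p under 0.05, in 10 of the 200 features (16.3% of all features tested), 9 of them in the small set and 1, Ssa#DW581780, in no set. In all 10 the change in S-CCS lay above that in net-pen. The 9 of the small set vary together, so they are not independent. For Ssa#GRASP223672464 the S-CCS mean was higher at 4M by 1.41 (adjusted p = 0.22) and the net-pen mean differed by -3.81, an interaction of 5.22 ± 1.11 (SE; adjusted p by limma 0.0035). For Ssa#CL4Contig1 the interaction was 4.79 ± 1.15 (adjusted p = 0.0071). In Ssa#S30269971 the mean at 4M was higher by 4.53 in S-CCS (adjusted p = 8.0e-04) and by 1.075 in net-pen (adjusted p = 0.465). Its interaction was 3.45 ± 1.21 (adjusted p = 0.049). Without net-pen 1M fish 1, the fish far above its group, 8 small-set features had an interaction.

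Differences were also taken on the slides that held smolts beside post-smolts. These are some of the fish that gave the calls, so the signs are no independent support. Of the 19 features called in S-CCS 4M against smolts, 19 had the same sign on the first such slide and 18 on the second, and of the 6 called in net-pen 4M all 6 did. In S-CCS 1M 1 of 2 did, on a slide with 1 smolt. Net-pen 1M shared no slide with another group, so its differences within a slide cannot be had. The same holds between the systems at 1M and at 4M and between the times in each system, where the compared groups shared no slide. Those differences, and the interaction of time and system, cannot be told apart from differences between slides. With slide as a random block 7 features were called in net-pen 1M against smolts and 21 in S-CCS 4M against smolts.

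The spread was compared between times and systems by the absolute deviation of each log2-ER from its group mean, fitted by limma across all 14172 features. The spread in these same fish chose the 200 features, so their values and counts here are a description and nothing is read from them against the other features. None of the 200 features was called at an adjusted p under 0.05 in any of the 3 contrasts, where 0.0212%, 0.0212% and 0.395% of all features were called. At an unadjusted p under 0.05, 13 of the 200 differed between 4M and 1M (7.25% of all), 47 between S-CCS and net-pen (12.9% of all) and 33 in the interaction of time and system (11.1% of all).

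The 200 features move together and are not independent. From 1M to 4M the median difference was -0.02 on the log2 scale, with 95 features wider and 105 narrower at 4M (all features: median -0.01). S-CCS fish were more spread than net-pen fish in 178 of the 200 features, with a median difference of 0.62 (all features: median -0.04). On deposited values, the large-set level at 1M had an SD of 1.98 for S-CCS against 0.70 for net-pen, whose 1M fish had slides of their own. At 4M the large-set SDs were 1.47 for S-CCS, or 0.68 without fish 12, against 1.42 for net-pen. At 4M the S-CCS SD was the lower for the first subset (1.44 against 1.74) and the higher for the second (1.77 against 0.955). The change of the spread from 1M to 4M was lower in S-CCS than in net-pen in 179, with a median of -1.01 (all features: -0.02). In the first subset all 103 of its features had a negative interaction, with a median of -1.38, and over the second subset the median was -0.35. In the small set the sign between systems was opposite, with S-CCS less spread than net-pen in 10 of 10 features and a median difference of -0.57. In the second subset the spread at 4M was lower than at 1M in 61 of 61, with a median of -0.62.

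The difference in spread farthest from 0 was the interaction of Ssa#CK892092, named here after its values were seen. Its lowest, median and highest deposited values were 2450, 14612 and 92444 at 1M and 185, 3122.5 and 15252 at 4M for net-pen fish. For S-CCS fish they were 16, 13846 and 34883 at 1M, where 2 fish were on the low level, and 2118, 10722 and 14206 at 4M, where none was. Its interaction in spread was -4.52 ± 1.07 (SE).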

How the data were processed

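RNA from skin of 31 fish was hybridized to Agilent single-colour arrays of 15377 spots, 536 of them controls. The authors deposited scanner tables, whose processed signal is an intensity after background subtraction, and a table of processed values, which equals the median signal intensity minus local background times 1 constant per array. The extraction kit differs between labels and paper.

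Members were ranked on the deposited table. Group means and absolute deviations were fitted with limma 3.58.1 in R 4.3.3 on log2 ratios. These ratios were computed here from the processed signal of the scanner tables (equal mean scaling, lowess span 0.3). The fits covered the 14172 features that exceeded background in 50% or more of a group's arrays, leaving out 145 outlier-marked values. Sets and figures used Python 3.11.15, NumPy 2.4.6, pandas 2.3.3, SciPy 1.17.1 and matplotlib 3.10.9. Scripts were run on simulated data with known changes. The share of simulated spread changes recovered is not given, so the power of the spread fit is not stated.

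The members, sets and lists were chosen with earlier results of these data known. Named features were the 10 highest by median SD, 3 on either side of the edge, 3 per set by mean r, the all-or-none features, and per comparison the 2 highest and 2 lowest called features without overlap. Other features were named after their values were seen. The interaction of group means, the subsets and the features at 2 levels were added after the data were seen. Alternatives were 75th percentile scaling, no lowess, normexp (offset 50), deposited values, no filter, slide or fish number as a block, deviations from the median, within-slide differences and each fish left out. The number of arrays limits the precision. Each array is a separate fish, but fish of a group shared an enclosure, so p-values measure the spread between fish.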

Additional observations from a re-analysis of the deposited data

Results flagged for a closer look

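The levels of the sets and some named features were examined for a single stray value in each of the 5 groups. Of these 105 combinations 11 had one. They share the same fish, and the sets and features overlap, so they are not independent. Chance gives about 1 in 20, but the features were chosen for their spread within groups, so the number is not read against that share. Net-pen 1M fish 1 was the highest of its group in the level of the small set, at 15.3 on the log2 scale, and in Ssa#CB509156 (16.17), Ssa#GRASP223672464 (16.26) and Ssa#CL4Contig1 (15.38). Ssa#GRASP223672662 was lowest in smolt fish 1, S-CCS 1M fish 1 and S-CCS 4M fish 1, at the floor of 4 on the log2 scale in each. Ssa#S46932109 was lowest in net-pen 4M fish 12, at 5, and Ssa#S35528745 in S-CCS 1M fish 11, at 4.524. Ssa#GRASP209734281 was highest in smolt fish 1, at 7.033, and in S-CCS 1M fish 1, at 6.285.

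The time course was unequal in S-CCS and net-pen, by limma's interaction term at an adjusted p under 0.05, in 10 features. The difference of the changes in log2-ER was 5.219 for Ssa#GRASP223672464, 4.793 for Ssa#CL4Contig1, 3.788 for Ssa#EL697882, 3.716 for Omy#CX153651 and 3.676 for Ssa#S50678800. It was 3.452 for Ssa#S30269971, 3.444 for Ssa#DW581780, 3.304 for Ssa#CA061607, 3.171 for Ssa#CK991045 and 3.145 for Ssa#CK991073.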

How the results depend on the processing

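Normexp correction gave 3 called features in net-pen 1M minus smolt, 15 in net-pen 4M minus smolt, 29 in S-CCS 4M minus smolt and 11 in net-pen 4M minus net-pen 1M, and 1 in the spread between systems. Over all features, the median r of same-numbered fish of different groups ran from -0.11 to 0.15. For fish 12, 6 of 10 pairs had an r above 0.1, against 103 of 324 pairs with different numbers. Some features at 2 levels were low in one fish number across groups. Ssa#S18885712 was low in fish 12 of every group, and Ssa#GRASP223672662 in fish 1 and Ssa#S35528745 in fish 11 of every group but net-pen 1M. In others, such as Ssa#GRASP221220043, the numbers of the low fish differed between groups. Why these fish numbers recur was not tested. With the number as a replicate block, net-pen 1M minus smolt had 3 called features, and there were 11 in S-CCS 4M minus smolt, 3 in net-pen 4M minus S-CCS 4M and 1 in the interaction of the spread, which was also 1 without lowess and 1 with the deposited values. All-or-none features numbered 16 with a looser upper limit, 0 with a stricter one and 11 with the floor as lower limit, and features at 2 levels 7 with a gap of 3. The causes were not tested.

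Leaving out 1 fish at a time, the counts ran from 3 to 11 in net-pen 1M minus smolt, 5 to 13 in net-pen 4M minus smolt, 1 to 3 in S-CCS 1M minus smolt and 12 to 47 in S-CCS 4M minus smolt. They ran from 0 to 4 in net-pen 1M minus S-CCS 1M, 1 to 9 in net-pen 4M minus S-CCS 4M, 2 to 10 in net-pen 4M minus net-pen 1M, 3 to 8 in S-CCS 4M minus S-CCS 1M and 8 to 11 in the interaction. In the spread they ran from 0 to 0 with time, 0 to 1 with system (1 without smolt fish 1) and 0 to 2 in the interaction (2 without net-pen 4M fish 6, and 1 without net-pen 1M fish 1 or 6, net-pen 4M fish 1, 7 or 12, S-CCS 1M fish 2, 7, 11 or 12, or S-CCS 4M fish 7). Of the 200 features, 180 to 198 stayed members. Under 5 other ways of ranking, 160 to 192 stayed. These were the scanner's processed signal, lowess-corrected values, a higher floor, the mean of the SDs and the median absolute deviation.

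Net-pen 1M minus smolt gave 3 without smolt fish 1, 2, 3 or 11 or net-pen 1M fish 1 or 7, and 11 without smolt fish 12. Without smolt fish 1, net-pen 4M minus smolt gave 13 and S-CCS 4M minus smolt 47, and the latter gave 12 without smolt fish 2 or S-CCS 4M fish 2 and 31 without net-pen 4M fish 12. S-CCS 1M minus smolt gave 1 without S-CCS 1M fish 1 or 6. Net-pen 1M minus S-CCS 1M gave 0 without net-pen 1M fish 12, and 1 without smolt fish 7 or 11, net-pen 1M fish 1 or 7, S-CCS 1M fish 6, 7 or 11 or S-CCS 4M fish 7. Net-pen 4M minus S-CCS 4M gave 3 without net-pen 4M fish 1, 2 or 12, 2 without S-CCS 4M fish 2 or 12 and 1 without S-CCS 4M fish 6. Net-pen 4M minus net-pen 1M gave 10 without net-pen 4M fish 2, and S-CCS 4M minus S-CCS 1M gave 3 without S-CCS 1M fish 7 or 11 or S-CCS 4M fish 12.

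The 16 named differences kept their direction in all 608 combinations with a setting, and 17 missed the threshold, for Ssa#CK888312 in S-CCS 4M minus smolt, Ssa#CL4Contig1 and Ssa#S30345407. The large and the small set held the same 165 and 10 features at a tree cut of 0.5 and with lowess-corrected values, and Spearman's rho divided the large set into 103 and 62. The settings for the interaction and for features at 2 levels were chosen after seeing the data. Spots near background limit the low levels.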
